A study of Mus musculus with 24 samples.

Results

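De novo lipid synthesis genes encode the enzymes and regulators with which a cell makes fatty acids and triglycerides from simple carbon precursors. The 10 genes described here are Fasn, Acaca, Acly, Elovl6, Thrsp, Srebf1, Me1, Dgat2, Pnpla3 and Mlxipl. They were chosen by gene symbol from a table of raw counts that holds 27179 genes. Each of the 10 had a single row, and all 10 were among the 17770 genes with enough counts to be tested.

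The RNA-Seq libraries were made from skin of C3H/HeJ mice with alopecia areata (AA), an autoimmune hair loss that was transferred to these mice by skin grafts or T cells. Some groups received an inhibitor that is selective for a single Janus kinase (JAK), and these groups are called JAK1i (treated with INCB039110), JAK2i (treated with CEP-33779) and JAK3i (treated with PF-06651600). Others received ruxolitinib, which inhibits JAK1 and JAK2, or tofacitinib, which inhibits JAKs more broadly. Each of these 5 groups had 3 libraries, and so did the vehicle group. The pretreatment group has 6 libraries, with 1 library from each of 6 cohorts. All groups share the strain and the disease, and neither sex nor age is given. The study describes systemic delivery, with a higher dose of JAK1i and JAK2i than of the other 3 inhibitors, whereas the sample labels describe a topical ointment and call the vehicle mice untreated. Dose therefore differs along with the inhibitor. Neither source says that the 3 libraries of a group came from separate mice, so p-values measure only the spread between these libraries.

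Libraries held 17311913 to 21858670 counts in all. A second deposited table, of 7 genes that mark T cells, interferon signalling and hair, follows the library names of the count table in 18 of 24 columns. In the other 6, which are JAK1i replicates 2 and 3, JAK2i replicates 1 and 3 and JAK3i replicates 1 and 2, it holds the values of a library of another of these 3 groups. The groups used here follow the names in the count table, and the calls that involve JAK1i, JAK2i and JAK3i were also made without these 6 libraries, whereas levels and spreads use all of them unless stated. Leaving them out leaves 1 library in each of the 3 groups, which is then assumed to vary like the other groups. The share of all genes called was computed only for the edgeR fit of all libraries, so counts from other fits and from DESeq2 stand without it. Among the remaining libraries, tofacitinib replicate 2 stood apart in lipid synthesis genes, with the highest level of its group in all 10 of them and the highest of all 24 libraries in 9. JAK1i replicate 3 stood apart from its group in other tissue markers, with hair shaft and inner root sheath genes summing to 619 CPM (counts scaled to a common library size) and at most 42.5 CPM in the other JAK1i libraries.

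In de novo lipogenesis, citrate exported from mitochondria is split by ATP citrate lyase into acetyl-CoA, which acetyl-CoA carboxylase turns into malonyl-CoA and fatty acid synthase polymerises into palmitate. Elongases and desaturases modify the product, and acyltransferases join it to glycerol for storage as triglyceride. The transcription factors SREBP-1 and ChREBP, which respond to insulin, sterols and glucose, drive most of these genes in liver and fat. In skin, adipocytes of the dermal and subcutaneous layers and the cells of sebaceous glands both make lipid by this route. Dermal adipose tissue is also known to thicken and thin with the hair cycle.

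The stretch just before the start site is shown for Fasn, Thrsp, Pnpla3 and Mlxipl, whose log2 fold changes are set against each other below and whose windows hold matches to the motifs searched. The windows of Acaca and Elovl6 held no match there. The only window of Acaca (chr11:84195188-84195487) lay inside the gene, which begins at 84129672, so the stretch before that first base was not searched. Windows of 300 bases (250 before and 50 after the start, RefSeq on GRCm38.p6, the reference strain and not C3H/HeJ) were available for 9 of the 10 genes, in 13 windows, and Dgat2 had none. Each line gives the 170 bases before the start, 5′ to 3′ on the strand of the gene, with matches to a searched motif in capitals. The motifs were CCAAT, the GC box GGGCGG, the E-box CACGTG and a short form of the sterol regulatory element, TCACNCCAC, each searched on both strands, together with the full sterol regulatory element.
Fasn (chr11:120824548-120824717, minus strand): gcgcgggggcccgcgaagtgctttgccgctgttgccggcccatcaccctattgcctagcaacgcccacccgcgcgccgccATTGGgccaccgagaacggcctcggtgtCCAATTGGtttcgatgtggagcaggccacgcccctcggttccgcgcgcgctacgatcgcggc
Thrsp (chr7:97417551-97417720, minus strand): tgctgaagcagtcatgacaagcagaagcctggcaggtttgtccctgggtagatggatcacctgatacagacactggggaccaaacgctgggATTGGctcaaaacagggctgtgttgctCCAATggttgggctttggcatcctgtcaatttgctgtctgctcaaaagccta
Pnpla3 (chr15:84167646-84167815, plus strand): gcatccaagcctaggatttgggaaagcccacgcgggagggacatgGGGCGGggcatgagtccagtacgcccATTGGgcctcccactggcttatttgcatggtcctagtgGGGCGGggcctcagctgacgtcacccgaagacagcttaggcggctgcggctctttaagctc
Mlxipl, upstream start (chr5:135089720-135089889, plus strand): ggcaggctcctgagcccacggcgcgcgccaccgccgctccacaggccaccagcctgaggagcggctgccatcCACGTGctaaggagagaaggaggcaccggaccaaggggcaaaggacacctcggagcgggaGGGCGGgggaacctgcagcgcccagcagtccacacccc
Mlxipl, downstream start (chr5:135106721-135106890, plus strand): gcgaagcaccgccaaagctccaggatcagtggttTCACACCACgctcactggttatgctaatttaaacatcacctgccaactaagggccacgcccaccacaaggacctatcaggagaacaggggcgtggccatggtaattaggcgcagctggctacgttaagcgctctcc
In Fasn, CCAAT boxes began at −90, −62 and −59 from the start, the last overlapping the one before it on the other strand. In Thrsp they began at −79 and −52. Pnpla3 held 1 CCAAT box at −99 between 2 GC boxes at −125 and −61. Mlxipl held an E-box at −98 and a GC box at −38 before its upstream start, and the shorter sterol motif at −136 before the downstream one. Outside the printed bases, the upstream Mlxipl window also held a CCAAT box at −173 and a GC box at −188. The Pnpla3 window likewise held another GC box at 37, after the start. Over whole windows, CCAAT occurred in 8 of the 13 windows of these genes and in 37.4% of all 32851 windows. The GC box occurred in 6 of 13 and in 35.7% of all windows. The E-box occurred in 1 and in 7.15% of all windows, and the shorter sterol motif in 1 and in 1.24%. The full sterol regulatory element occurred in 0 of the 13 and in 0.0913% of all windows. These matches describe letters only and were not tested as binding sites.

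Several of the 10 lipid synthesis genes rose after JAK3i, ruxolitinib and tofacitinib relative to vehicle, fewer after JAK1i, and none was called after JAK2i. Calls rest on the edgeR quasi-likelihood test, at an adjusted p below 0.05 over all 17770 genes. After JAK1i 5 of the 10 genes rose, where 64.2% of all genes were called and 28.8% were higher, so that the share of members called was below that of all genes. After JAK3i 7 rose, against 64.8% of all genes called and 31.7% higher. After ruxolitinib 6 rose, against 50.9% called and 23.6% higher. After tofacitinib 9 rose, against 52.9% called and 24.8% higher. Every member called against vehicle was higher, while Acly and Dgat2 had log2 fold changes of −0.09 and −0.01 after JAK1i and were not called. After JAK2i 0 of the 10 genes and 0% of all genes were called, with 213 genes at an unadjusted p below 0.05 and again 0 members called by DESeq2. The median log2 fold change of the 10 genes was 0.60 after JAK1i, −0.03 after JAK2i, 0.78 after JAK3i, 1.04 after ruxolitinib and 1.54 after tofacitinib, while that of all genes lay between −0.06 and 0.02. In skin as a whole, more cells of a type and more RNA per cell cannot be told apart. Without the 6 libraries of disputed name, 3 genes rose after JAK1i (Thrsp 3.41, Me1 1.11 and Mlxipl 3.53 on the log2 scale) and 0 were called after JAK2i. After JAK3i the same fit called 7, with log2 fold changes of 4.03 for Thrsp, 2.80 for Mlxipl, 2.31 for Fasn, 1.48 for Acaca, 0.95 for Elovl6, 0.76 for Me1 and 0.67 for Srebf1.

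**Figure D1:**
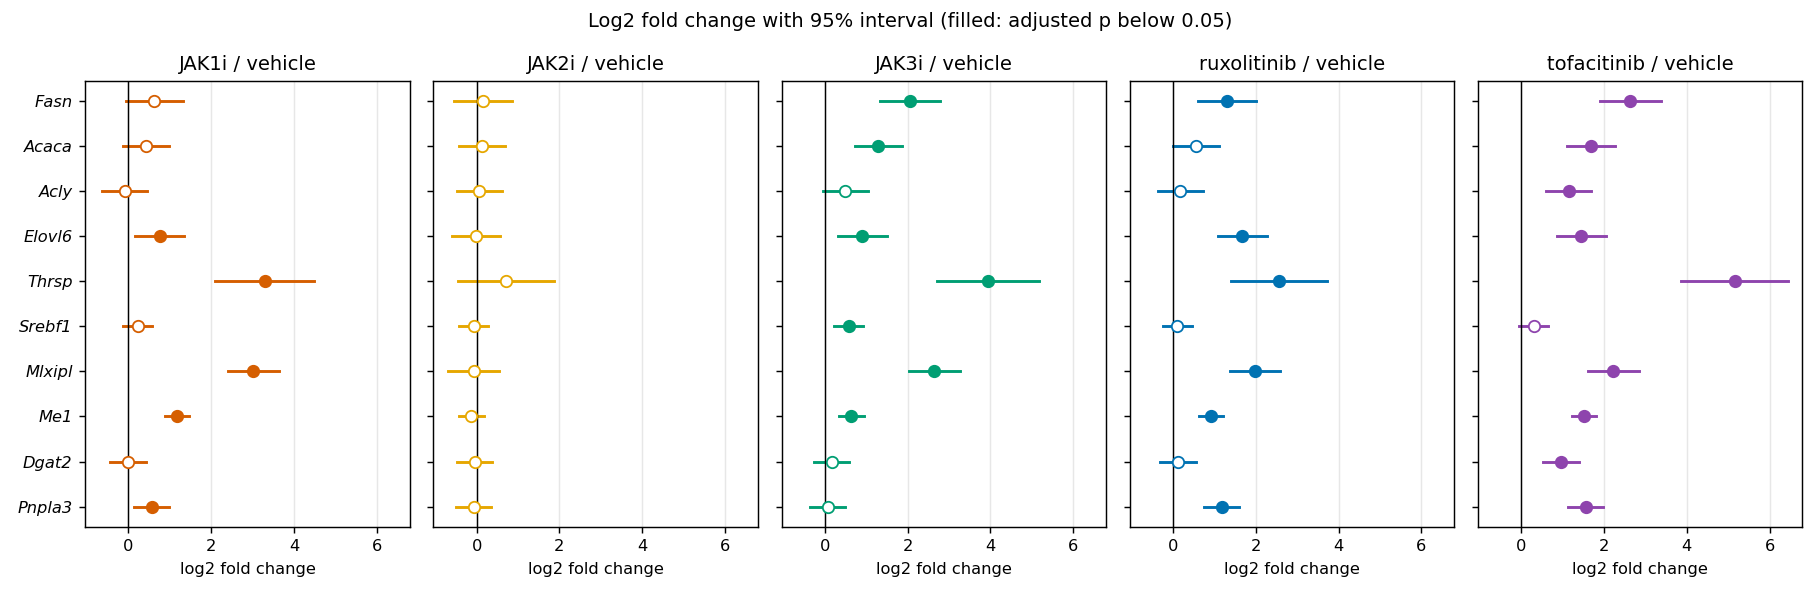
Log2 fold change (horizontal axis) of the 10 genes against vehicle for each inhibitor, with 95% intervals, where filled points passed an adjusted p of 0.05. All intervals after JAK2i span 0, whereas Thrsp and Mlxipl lie to the right of 0 after the other 4 inhibitors.

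Vehicle and pretreatment skin did not separate in any of the 10 genes, so both serve as a baseline. With vehicle set against pretreatment, 0 of the 10 genes and 0% of all genes were called (232 genes at an unadjusted p below 0.05, and 0 members by DESeq2). The libraries of the groups overlapped in all 10, but the share of all genes that overlapped was not computed. The widest gap was that of Thrsp, with a log2 fold change of −0.59, at 7.54 to 12.9 CPM after vehicle and 5.86 to 22.4 CPM before treatment. Against pretreatment, 5 genes rose after JAK1i, where 69.3% of all genes were called and 31.1% were higher. The same comparison gave 7 after JAK3i (69.4% called, 34.4% higher), 6 after ruxolitinib (56.5% called, 26.7% higher) and 9 after tofacitinib (58.3% called, 28% higher). After JAK2i 0 were called against pretreatment (0% of all genes, 246 at an unadjusted p below 0.05, and 0 members by DESeq2). The counts without the libraries of disputed name were 4 after JAK1i, 0 after JAK2i, 7 after JAK3i, 7 after ruxolitinib and 9 after tofacitinib. These counts share their treated libraries with the counts against vehicle. Those without the libraries of disputed name have no share of all genes beside them.

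The genes Thrsp, Mlxipl and Me1 rose after all of JAK1i, JAK3i, ruxolitinib and tofacitinib. Elovl6 did so too, but its call after JAK1i was lost under 3 alternatives and that after JAK3i under 1, given with its values. Fasn and Pnpla3 rose after 3 of these treatments, Acaca after 2, and Acly, Dgat2 and Srebf1 after 1 each. The call of Pnpla3 after JAK1i was lost under 2 alternatives. Values of single libraries are given below in the order of replicates 1, 2 and 3.

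**Figure D2:**
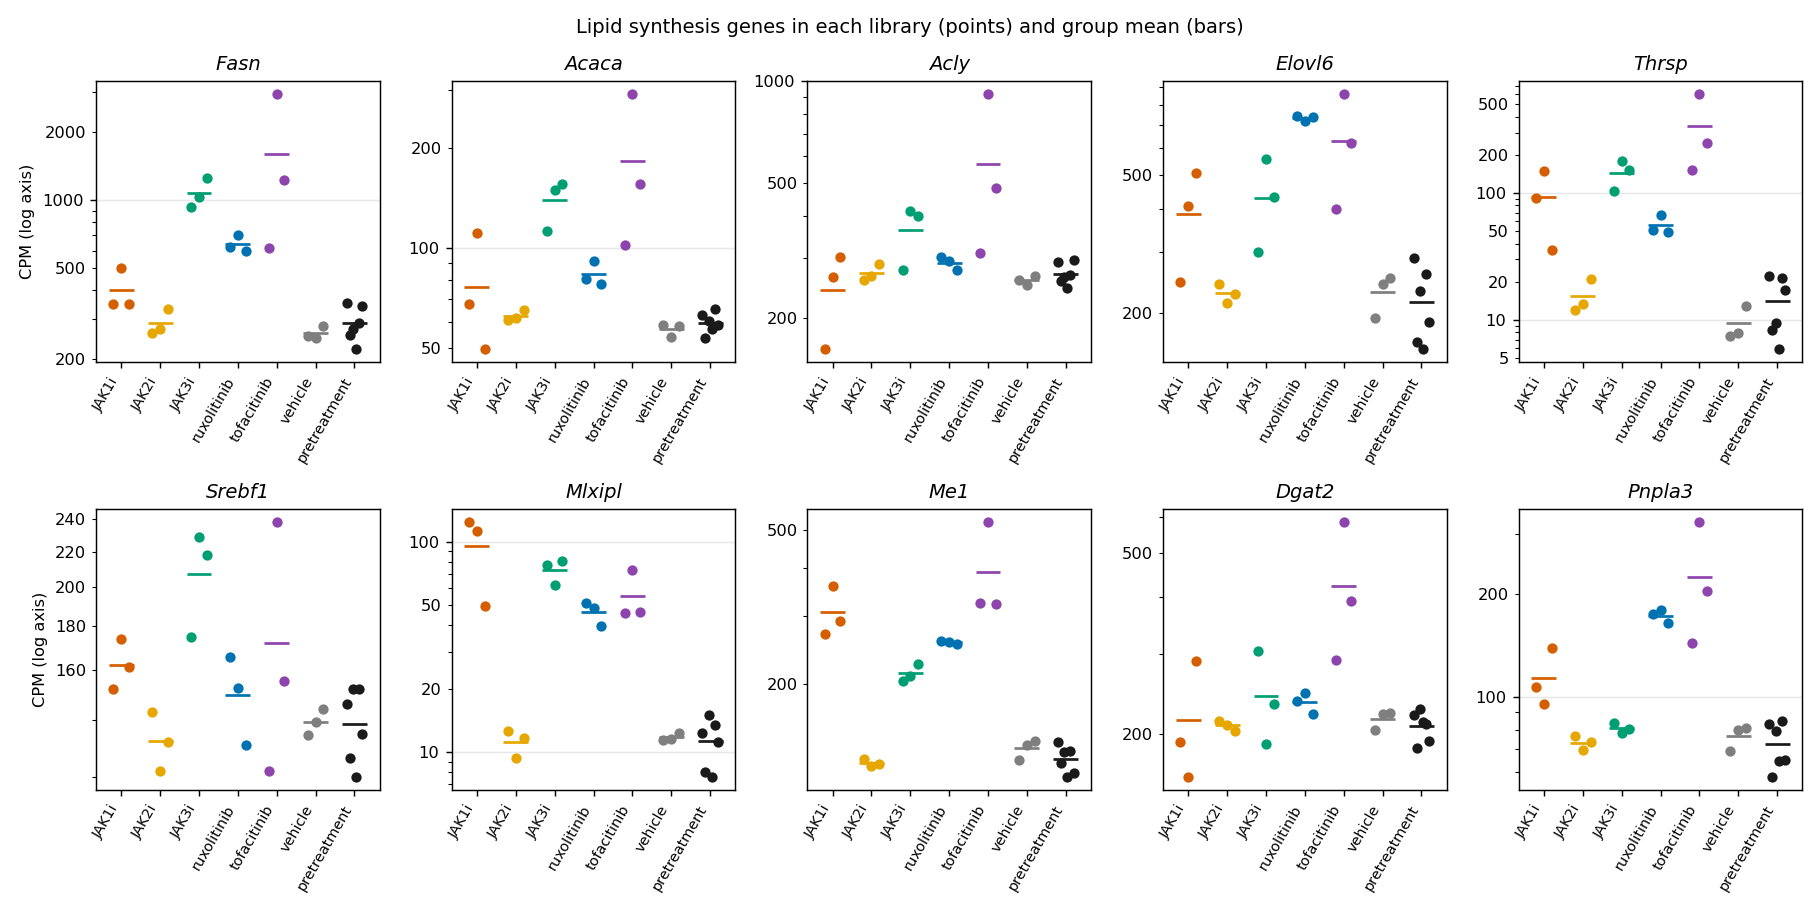
Level of each gene in CPM on a log axis, with 1 point per library and a bar at the group mean (3 libraries per group, 6 before treatment). JAK2i, vehicle and pretreatment libraries lie together in each panel, and tofacitinib replicate 2 is the highest point in all panels but that of Mlxipl.

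Acly (Entrez ID 104112, chromosome 11, 100476353 to 100528000 on GRCm38), which encodes ATP citrate lyase, the source of cytosolic acetyl-CoA, rose after tofacitinib and was called after no other inhibitor in the fit of all groups. Its libraries were at 311, 918 and 483 CPM after tofacitinib and at 259, 251 and 265 CPM after vehicle. The log2 fold change was 1.14 ± 0.26 (SE, adjusted p = 0.00107, higher in 3 of 3 libraries), and 0.62 without tofacitinib replicate 2 (adjusted p = 0.0164). After JAK1i the libraries of Acly spread from 162 to 302 CPM around those of vehicle, and the log2 fold change was −0.09 with a 95% interval of −0.63 to 0.45. After JAK3i, at 278, 413 and 400.1 CPM, the libraries lay above all vehicle libraries, but the log2 fold change of 0.49 ± 0.26 missed the threshold (adjusted p = 0.101). In fits of only the 2 groups compared Acly was called after JAK3i (0.49, adjusted p = 0.0147) and after ruxolitinib (0.19, adjusted p = 0.011).

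Me1 (Entrez ID 17436, chromosome 9, 86581371 to 86695953), which encodes the cytosolic malic enzyme and supplies NADPH for fatty acid synthesis, was the member with the narrowest error. It was at 270.4, 360.2 and 291 CPM after JAK1i, at 204, 210.4 and 226 CPM after JAK3i, at 259, 257 and 254 CPM after ruxolitinib and at 325, 527 and 322 CPM after tofacitinib. Vehicle libraries were at 127, 139.6 and 143 CPM, and those after JAK2i at 128, 123 and 125 CPM. Every library of the 4 groups that rose lay above every vehicle library. The log2 fold changes were 1.17 after JAK1i, 0.65 after JAK3i, 0.91 after ruxolitinib and 1.52 after tofacitinib, each with an SE of 0.14 and an adjusted p of at most 0.000487. Between inhibitors, Me1 was lower after JAK3i than after JAK1i (−0.52 ± 0.14, adjusted p = 0.00514) and lower after JAK3i than after tofacitinib (−0.87 ± 0.14, adjusted p = 5.91e-05), with no overlap of libraries in either comparison. Without the libraries of disputed name the first was not called (−0.36, adjusted p = 0.314) and the other was (−0.80, adjusted p = 0.0109).

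Acaca (Entrez ID 107476, chromosome 11, 84129672 to 84401651), which encodes the acetyl-CoA carboxylase of the cytosol and makes malonyl-CoA, rose after JAK3i and tofacitinib. Its level was 113, 149 and 156 CPM after JAK3i and 102, 292 and 156 CPM after tofacitinib, against 58.6, 53.9 and 58.3 CPM after vehicle. The log2 fold changes were 1.29 ± 0.27 (adjusted p = 0.000348) and 1.69 ± 0.27 (adjusted p = 3.73e-05), and each rose in 3 of 3 libraries. Without tofacitinib replicate 2 the log2 fold change after tofacitinib was 1.18 (adjusted p = 0.000252). After ruxolitinib the libraries at 80.9, 91.3 and 78.0 CPM were all above vehicle, with a log2 fold change of 0.55 ± 0.27 that was not called (adjusted p = 0.0948), although it was in a fit of only ruxolitinib and vehicle libraries (0.57, adjusted p = 7.50e-05). After JAK1i they were at 67.9, 111 and 49.5 CPM, on both sides of vehicle, and Acaca was called there when JAK1i replicate 3 was left out (0.77, adjusted p = 0.0144).

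Fasn (Entrez ID 14104, chromosome 11, 120805846 to 120824547), the fatty acid synthase that makes palmitate, rose after JAK3i, ruxolitinib and tofacitinib. It was at 937, 1033 and 1255 CPM after JAK3i, at 623, 699.6 and 599 CPM after ruxolitinib and at 618, 2953 and 1234 CPM after tofacitinib. The libraries were at 348, 505 and 348 CPM after JAK1i, at 259, 270.2 and 329.8 CPM after JAK2i and at 251, 246 and 278 CPM after vehicle, and before treatment they ranged from 219.6 to 352 CPM with a median of 278 CPM. All libraries of the 3 groups that rose were above every library of the other groups, and JAK1i libraries lay between them and vehicle. Fold changes against vehicle were 4.16 after JAK3i (log2 2.06 ± 0.35, adjusted p = 3.32e-05), 2.48 after ruxolitinib (log2 1.31 ± 0.34, adjusted p = 0.00317) and 6.19 after tofacitinib (log2 2.63 ± 0.35, adjusted p = 4.09e-06). Without tofacitinib replicate 2 the last was 1.84 on the log2 scale (adjusted p = 5.04e-06). After JAK1i the log2 fold change was 0.63 ± 0.33 (adjusted p = 0.105), and Fasn was called there when JAK1i replicate 3 was left out (0.83, adjusted p = 0.0477) and in a fit of only JAK1i and vehicle libraries (0.71, adjusted p = 0.0213). Fasn was higher after JAK3i than after JAK1i by 1.43 ± 0.34 on the log2 scale (adjusted p = 0.00216), with no overlap, and this was not called without the libraries of disputed name (1.76, adjusted p = 0.0547).

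Thrsp (Entrez ID 21835, chromosome 7, 97412938 to 97417730) encodes Spot 14, a small protein induced by thyroid hormone and carbohydrate that promotes lipogenesis, and it had the largest fold change of the 10 genes after JAK1i, JAK3i, ruxolitinib and tofacitinib, except that without the libraries of disputed name Mlxipl was above it after JAK1i (3.53 against 3.41 on the log2 scale). Its level was 92.3, 151 and 35.3 CPM after JAK1i, 105, 179 and 151 CPM after JAK3i, 51.0, 66.8 and 49.5 CPM after ruxolitinib and 153, 606 and 249 CPM after tofacitinib. Vehicle libraries held 7.54, 7.90 and 12.9 CPM and JAK2i libraries 12.0, 13.3 and 21.2 CPM. No library of the 4 groups that rose overlapped with vehicle, although JAK1i and tofacitinib libraries were spread by 4.27 and 3.96 times. The fold changes were 9.83 after JAK1i, 15.4 after JAK3i, 5.91 after ruxolitinib and 35.6 after tofacitinib, which correspond to log2 values of 3.30 ± 0.57, 3.94 ± 0.59, 2.56 ± 0.56 and 5.15 ± 0.62 (adjusted p of at most 0.000812). Without tofacitinib replicate 2 the last was 4.41 (adjusted p = 4.07e-06). The change after tofacitinib ranked 10 among all 17770 genes from the highest, and that after JAK3i ranked 45. After JAK2i the log2 fold change was 0.71, with an interval of −0.44 to 1.87.

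Elovl6 (Entrez ID 170439, chromosome 3, 129532355 to 129638495), the elongase that extends palmitate to stearate, had its highest mean after ruxolitinib, which did not separate from that after tofacitinib (tofacitinib against ruxolitinib −0.23 ± 0.28 on the log2 scale, adjusted p = 0.857). The 3 ruxolitinib libraries were at 745, 720.1 and 739.9 CPM, within 1.03 times of each other. Tofacitinib libraries were at 399, 861 and 622 CPM, on both sides of the ruxolitinib libraries, JAK3i libraries at 301, 557 and 434 CPM and JAK1i libraries at 246, 407 and 509 CPM. Vehicle libraries were at 194, 244 and 252 CPM and JAK2i libraries at 243, 215 and 227 CPM. Only the JAK1i libraries overlapped with vehicle among the groups that rose. The log2 fold changes were 1.68 ± 0.29 after ruxolitinib (adjusted p = 7.74e-05), 1.45 ± 0.29 after tofacitinib (adjusted p = 0.000271), 0.91 ± 0.28 after JAK3i (adjusted p = 0.00824) and 0.75 ± 0.28 after JAK1i (adjusted p = 0.0241). The call after JAK3i was lost without JAK3i replicate 2 (0.68, adjusted p = 0.0518). The call after JAK1i was lost without vehicle replicate 1 (0.64, adjusted p = 0.0924), without JAK1i replicate 3 (0.62, adjusted p = 0.0624) and without the libraries of disputed name (0.23, adjusted p = 0.592). Elovl6 was lower after JAK3i than after ruxolitinib (−0.77 ± 0.28, adjusted p = 0.0371) and lower after JAK1i than after ruxolitinib (−0.92 ± 0.28, adjusted p = 0.0171), and in both comparisons the libraries did not overlap. Without the libraries of disputed name the first of these was no longer called (−0.77, adjusted p = 0.136) and the other was (−1.49, adjusted p = 0.00589).

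Dgat2 (Entrez ID 67800, chromosome 7, 99153658 to 99182719), an acyltransferase that performs the last step of triglyceride synthesis, rose after tofacitinib and was called after no other inhibitor. Its libraries were at 291, 585 and 392 CPM after tofacitinib and at 204, 221 and 222 CPM after vehicle, with a log2 fold change of 0.97 ± 0.21 (adjusted p = 0.000605) and of 0.66 without tofacitinib replicate 2 (adjusted p = 0.00765). After ruxolitinib Dgat2 was at 221 to 246 CPM, with a log2 fold change of 0.12 and a 95% interval of −0.31 to 0.55. After JAK1i it ranged from 161 to 289 CPM, with a log2 fold change of −0.01 and an interval of −0.44 to 0.42. Dgat2 was lower after JAK3i than after tofacitinib (−0.80 ± 0.21, adjusted p = 0.0042), although JAK3i libraries at 304, 190.4 and 232 CPM overlapped with those after tofacitinib.

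Pnpla3 (Entrez ID 116939, chromosome 15, 84167837 to 84187236) encodes a lipid droplet protein with lipase and transacylase activity whose transcript is induced by SREBP-1 and ChREBP in liver. It rose after JAK1i, ruxolitinib and tofacitinib, and after JAK3i its libraries overlapped with those of vehicle. Levels were 107, 95.1 and 139 CPM after JAK1i, 83.7, 78.2 and 80.5 CPM after JAK3i, 175, 179 and 164 CPM after ruxolitinib and 144, 327 and 205 CPM after tofacitinib. Vehicle libraries were at 69.4, 79.8 and 80.7 CPM and JAK2i libraries at 76.7, 69.7 and 73.5 CPM. The log2 fold changes were 0.57 ± 0.20 after JAK1i (adjusted p = 0.0191), 1.17 ± 0.20 after ruxolitinib (adjusted p = 9.19e-05) and 1.55 ± 0.21 after tofacitinib (adjusted p = 3.47e-06). After JAK3i the log2 fold change was 0.08 with a 95% interval of −0.35 to 0.50. Pnpla3 was lower after JAK3i than after ruxolitinib (−1.10 ± 0.20, adjusted p = 0.000278) and than after tofacitinib (−1.48 ± 0.21, adjusted p = 1.26e-05), with no overlap of libraries. The call after JAK1i was lost without vehicle replicate 1 (0.50, adjusted p = 0.0716) and without the libraries of disputed name (0.61, adjusted p = 0.088).

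Srebf1 (Entrez ID 20787, chromosome 11, 60199089 to 60222581), which encodes SREBP-1, the transcription factor that insulin activates to drive lipogenic genes, rose after JAK3i and was called after no other inhibitor in the fit of all groups. It was at 175, 229 and 218 CPM after JAK3i and at 134, 139 and 144 CPM after vehicle, a log2 fold change of 0.57 ± 0.17 (adjusted p = 0.00526, higher in 3 of 3 libraries). The log2 fold changes after JAK1i, ruxolitinib and tofacitinib were 0.22, 0.10 and 0.30, and none of them was called, although Srebf1 was called after JAK1i in a fit of only those 2 groups (0.30, adjusted p = 0.035). After tofacitinib the libraries were at 122, 239 and 155 CPM, and the log2 fold change was −0.01 without replicate 2 and 0.50 without replicate 1 (adjusted p = 0.0111). Counts of Srebf1 cover all its transcripts, so that SREBP-1a and SREBP-1c were not separated, and say nothing of the cleavage that activates the protein.

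Mlxipl (Entrez ID 58805, chromosome 5, 135089890 to 135138382), which encodes ChREBP, the factor that couples glucose to lipogenic genes, was the only one of the 10 genes with its highest group after JAK1i. Levels were 124, 113 and 49.2 CPM after JAK1i, 77.7, 62.4 and 80.5 CPM after JAK3i, 51.0, 48.1 and 39.5 CPM after ruxolitinib and 45.6, 73.6 and 46.2 CPM after tofacitinib. Vehicle libraries were at 11.4, 11.5 and 12.3 CPM and JAK2i libraries at 12.6, 9.33 and 11.6 CPM. Every library of the 4 groups that rose was over 3 times the highest vehicle library. Fold changes were 8.12 after JAK1i, 6.25 after JAK3i, 3.93 after ruxolitinib and 4.69 after tofacitinib, or 3.02 ± 0.30, 2.64 ± 0.30, 1.97 ± 0.29 and 2.23 ± 0.29 on the log2 scale (adjusted p of at most 1.46e-05). Mlxipl was higher after JAK1i than after ruxolitinib (1.05 ± 0.27, adjusted p = 0.00721) and than after tofacitinib (0.79 ± 0.27, adjusted p = 0.0266), although JAK1i replicate 3 overlapped with both groups.

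The order of the groups was not the same for all genes. Tofacitinib had the highest mean of Fasn, Acaca, Acly, Thrsp, Me1, Dgat2 and Pnpla3, ruxolitinib that of Elovl6, JAK3i that of Srebf1 and JAK1i that of Mlxipl. Without tofacitinib replicate 2 the means of Fasn and Acaca were highest after JAK3i, where the log2 fold changes against vehicle were 2.06 and 1.29, against 1.84 and 1.18 after tofacitinib, and the other 8 genes kept their highest group. Many neighbours in these orders did not differ beyond their spread. For Fasn, none of the 6 steps between neighbouring groups was called, from vehicle through JAK2i, pretreatment, JAK1i, ruxolitinib and JAK3i to tofacitinib. For Thrsp the step from JAK2i to ruxolitinib was called (1.85 on the log2 scale, adjusted p = 0.00797) and no other. For Mlxipl the step from vehicle to ruxolitinib was called, and no step among ruxolitinib, tofacitinib, JAK3i and JAK1i was. For Pnpla3 the step from JAK1i to ruxolitinib was called (0.61, adjusted p = 0.0269), but not without the libraries of disputed name (adjusted p = 0.138).

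Direct comparisons among JAK1i, JAK3i, ruxolitinib and tofacitinib gave calls in both directions, except JAK3i against tofacitinib and tofacitinib against ruxolitinib. For JAK3i against JAK1i, JAK3i against tofacitinib and JAK1i against ruxolitinib, the share of members called was below that of all genes. It was above that of all genes for JAK3i against ruxolitinib and JAK1i against tofacitinib. JAK3i against JAK1i gave 2 genes higher, Fasn and Acaca, and 1 lower, Me1, where 42.9% of all genes were called. Without the libraries of disputed name none of these 3 was called, with log2 fold changes of 1.76 for Fasn, 1.10 for Acaca and −0.36 for Me1, and the 1 gene called was Acly (1.21, adjusted p = 0.0479). JAK3i against ruxolitinib gave 3 higher, Acaca, Thrsp and Srebf1, and 2 lower, Elovl6 and Pnpla3 (36.5% of all genes). That count of 5 was not firm, at 1 without JAK3i replicate 3 or ruxolitinib replicates 2 or 3, at 2 without JAK3i replicate 2 or ruxolitinib replicate 1, and at 1, Pnpla3, without the libraries of disputed name. JAK3i against tofacitinib gave 3 lower, Me1, Dgat2 and Pnpla3 (39.3% of all genes), the same 3 without the libraries of disputed name, 8 called without tofacitinib replicate 1 and 5 without JAK3i replicate 2. JAK1i against ruxolitinib gave 1 higher, Mlxipl, and 2 lower, Elovl6 and Pnpla3 (32.6% of all genes), with 1 called without JAK1i replicate 1, 5 without JAK1i replicate 3, and Mlxipl and Elovl6 without the libraries of disputed name. JAK1i against tofacitinib gave 1 higher, Mlxipl, and 6 lower, Fasn, Acaca, Acly, Thrsp, Dgat2 and Pnpla3 (40.4% of all genes), and without the libraries of disputed name Elovl6 was called in place of Thrsp. Tofacitinib and ruxolitinib differed least over all genes, with 0.371% called, and Thrsp was the member called between them (2.59 ± 0.54 higher after tofacitinib, adjusted p = 0.044). DESeq2 called 6 members there, all higher after tofacitinib, but the share of all genes called by DESeq2 was not computed. The libraries of disputed name are in neither group, but leaving them out of the shared fit gave 3 calls, Thrsp, Acaca and Dgat2. The single call was lost without tofacitinib replicates 2 or 3 or any 1 ruxolitinib library, whereas 6 members were called without tofacitinib replicate 1. Against JAK2i, which was added as a comparison after the levels had been seen, 5, 7, 6 and 9 genes rose after JAK1i, JAK3i, ruxolitinib and tofacitinib (64.2%, 64.1%, 49.6% and 51.7% of all genes called). Without the libraries of disputed name fewer genes were called after JAK1i, JAK3i and ruxolitinib. In that fit Elovl6 after JAK3i (1.04 on the log2 scale) and Fasn after ruxolitinib (1.28) were not called against JAK2i.

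The ratio of Fasn to Elovl6 and to Pnpla3 set JAK3i apart from ruxolitinib within each library. On the log2 CPM scale, Fasn minus Pnpla3 was 3.72 ± 0.24 after JAK3i, 1.89 ± 0.07 after ruxolitinib and 1.75 ± 0.12 after vehicle (SD, n = 3 each). It was 2.62 ± 0.54 after tofacitinib and 1.81 ± 0.55 after JAK1i. Fasn minus Elovl6 was 1.35 ± 0.40 after JAK3i, 1.13 ± 0.59 after tofacitinib, −0.20 ± 0.14 after ruxolitinib and 0.18 ± 0.18 after vehicle. The lowest JAK3i library, at 3.48 for Pnpla3, lay above the highest ruxolitinib library, at 1.96. Pnpla3 minus Dgat2 was −0.44 ± 0.02 after ruxolitinib and −1.50 ± 0.05 after vehicle, and at −1.56 ± 0.29 after JAK3i it was close to vehicle. In the 1 library per group whose name was not disputed, Fasn minus Pnpla3 was 3.96 after JAK3i and 1.70 after JAK1i, and Fasn minus Elovl6 was 1.53 after JAK3i. These ratios were chosen after the levels had been seen and were given no test.

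**Figure D3:**
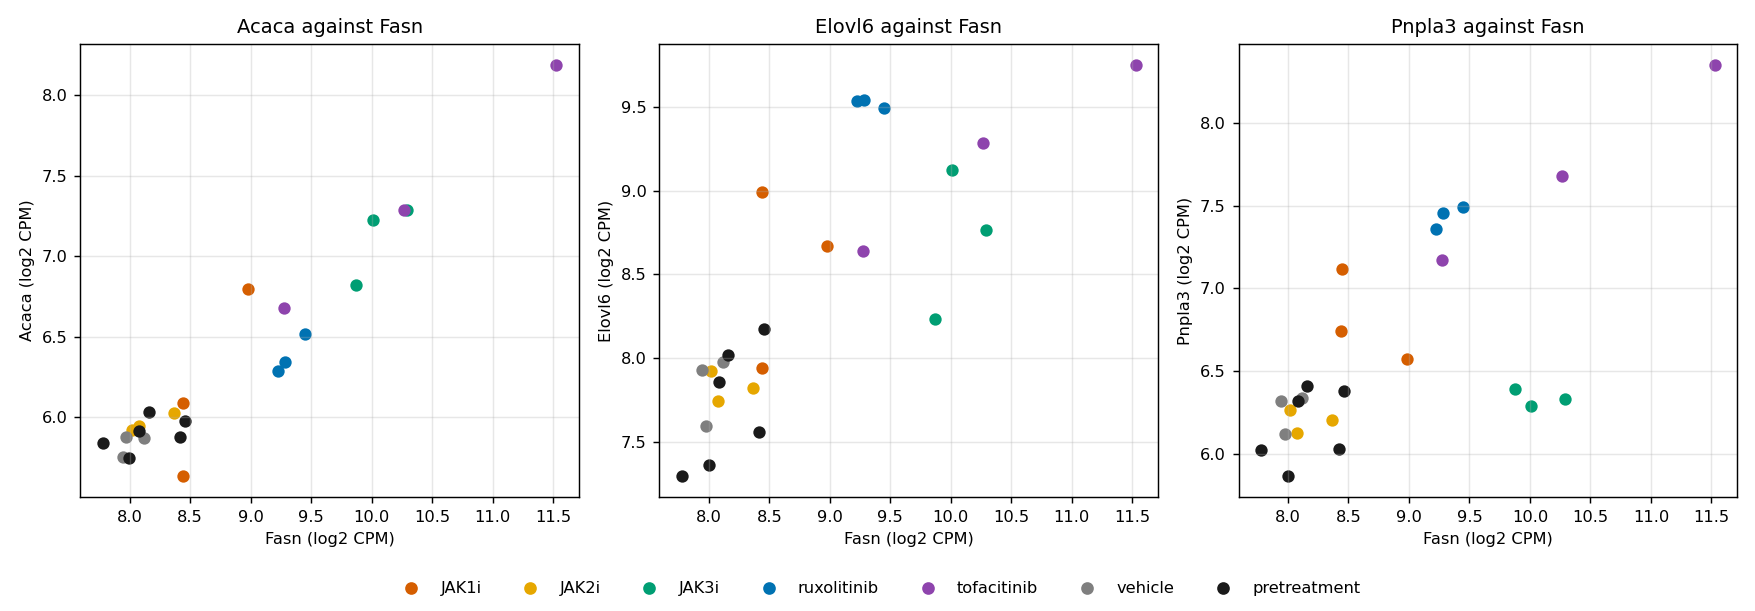
Level of Acaca, Elovl6 and Pnpla3 (vertical axes, log2 CPM) against that of Fasn (horizontal axes, log2 CPM), with 1 point per library. Acaca follows Fasn over the 24 libraries (r = 0.96, not computed within groups). The 3 JAK3i libraries lie low in Pnpla3 for their level of Fasn and the 3 ruxolitinib libraries lie high in Elovl6.

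Over the 24 libraries, the 45 pairs of these genes had a median Pearson correlation of 0.70 in log2 CPM, from 0.30 for Mlxipl and Acly to 0.96 for Acaca and Fasn. Libraries of a group share their treatment, so these values mostly describe the groups. Fasn, Acaca and Thrsp formed the closest set (0.96, 0.92 and 0.90), and Elovl6 and Pnpla3 were close to each other (0.87). Elovl6 and Pnpla3 also followed the mean of 12 sebaceous gland genes (r = 0.91 each), which for Fasn was 0.60. Mlxipl followed the means of 16 skeletal muscle genes (r = 0.94) and 12 adipocyte genes (r = 0.92), and Acly followed neither as closely (0.06 and 0.51). With the adipocyte mean, r was also 0.91 for Thrsp, 0.88 for Fasn, 0.86 for Me1, 0.83 for Elovl6 and 0.78 for Acaca. It was 0.70 for Pnpla3, 0.69 for Srebf1 and 0.55 for Dgat2. Of 14445 other genes, those whose pattern was most like the mean of the 10 were Scd1 (r = 0.97), a stearoyl-CoA desaturase that shares close sequence with its paralogs, Acss2 (0.97), which activates acetate, and Agpat2 (0.95), an acyltransferase of triglyceride synthesis. The next were Rasl12, Enpep, Ppp2r5a, A530016L24Rik, Pcx, Slc25a10 and Tmem135 (0.94 to 0.95).

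Levels of different genes were compared per kilobase of exon, on the exons of GENCODE M21. After vehicle, Dgat2 was the highest of the 10 at 70.1 CPM per kb, followed by Pnpla3 at 49.5 and Acly at 48.9, while Thrsp, Acaca and Mlxipl were lowest at 4.31, 3.33 and 2.12. After tofacitinib, Thrsp at 153 CPM per kb was first, ahead of Fasn at 146, Pnpla3 at 145 and Dgat2 at 137. That order rested on replicate 2, without which Pnpla3 was first at 113, followed by Dgat2 at 111, Thrsp at 91.8 and Fasn at 84.6. After JAK3i Fasn was first at 98.2, after ruxolitinib Elovl6 at 114, and after JAK1i Me1 at 79.8. In the 1 library of each group whose name was not disputed, Fasn was again first after JAK3i (115) and Me1 after JAK1i (70.3). The 10 genes together took 0.256% to 0.767% of all counts after tofacitinib, 0.262% to 0.332% after JAK3i, 0.272% to 0.294% after ruxolitinib, 0.150% to 0.217% after JAK1i, 0.136% to 0.148% after JAK2i and 0.131% to 0.145% after vehicle. Before treatment they took 0.119% to 0.165%, which overlapped with the range after JAK1i.

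Other genes of lipid synthesis moved less uniformly than the 10. For this and the lists below, 64.2%, 64.8%, 50.9% and 52.9% of all genes were called after JAK1i, JAK3i, ruxolitinib and tofacitinib. In the same order, 28.8%, 31.7%, 23.6% and 24.8% of all genes were higher. Of 26 such genes, 12 rose and 8 fell after JAK1i, 16 rose and 6 fell after JAK3i, 14 rose and 4 fell after ruxolitinib and 18 rose and 2 fell after tofacitinib, with median log2 fold changes of 0.23, 0.88, 0.45 and 0.99. Without the libraries of disputed name 11 rose and 6 fell after JAK1i, and 15 rose and 5 fell after JAK3i. Pparg, the master regulator of fat cells, rose after all 4 (1.66, 3.07, 2.37 and 2.73 on the log2 scale for JAK1i, JAK3i, ruxolitinib and tofacitinib). Nr1h3, the oxysterol receptor LXRα, Lpin1, a phosphatidate phosphatase, and Dgat1, the other triglyceride acyltransferase, also rose after all 4, by 0.76 to 2.42 on the log2 scale. Agpat2 rose by 2.47 after JAK3i and 2.69 after tofacitinib, and by 1.29 and 1.42 after JAK1i and ruxolitinib. G6pdx, which supplies NADPH from glucose 6-phosphate, fell after JAK1i (−1.41), JAK3i (−0.57) and ruxolitinib (−0.50), the opposite of Me1, though its call after JAK3i was lost without the libraries of disputed name (−0.47, adjusted p = 0.0781). Scap, the escort protein of the SREBPs, fell after all 4 by 0.49 to 0.69 on the log2 scale. Scd1, Scd2 and Scd3 are desaturases of close sequence, with log2 fold changes after tofacitinib of 2.68, −0.84 and 3.26. Whether reads were shared among them was not tested.

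Most genes of cholesterol synthesis, which SREBP-2 governs, fell after JAK1i and JAK3i. Of 19 such genes, 0 rose and 16 fell after JAK1i and 0 rose and 15 fell after JAK3i, with median log2 fold changes of −0.84 and −0.69, and without the libraries of disputed name 16 and 13 fell. After ruxolitinib 3 rose and 5 fell, and after tofacitinib 7 rose and 3 fell, with medians of −0.25 and 0.14, where 50.9% and 52.9% of all genes were called. After JAK1i and JAK3i 64.2% and 64.8% of all genes were called. Srebf2 itself fell after JAK1i, JAK3i, ruxolitinib and tofacitinib (−0.88, −0.97, −0.63 and −0.80). Cyp51, a demethylase of lanosterol, fell after JAK1i (−1.11) and JAK3i (−1.10) and rose after tofacitinib (0.40). Hsd17b7, which reduces a later intermediate, fell after JAK1i, JAK3i and ruxolitinib (−0.92, −0.90 and −0.32) and rose after tofacitinib (0.65).

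Genes that break lipid down rose in the same libraries. Of 15 genes of lipolysis and fatty acid oxidation, 13 rose and 2 fell after JAK1i, 12 rose and 2 fell after JAK3i, 12 rose and 1 fell after ruxolitinib and 11 rose and 1 fell after tofacitinib. Their median log2 fold changes were 1.10, 1.07, 0.88 and 0.62, and without the libraries of disputed name 13 rose after each of JAK1i and JAK3i. Pnpla2 and Mgll, which encode the first and last lipases of triglyceride breakdown, rose by 1.14 to 2.36 on the log2 scale after these 4 treatments. Acadm, an enzyme of β-oxidation, and Ppara, its regulator, rose by 0.88 to 2.13. After JAK2i 0 genes of these lists were called.

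**Figure D4:**
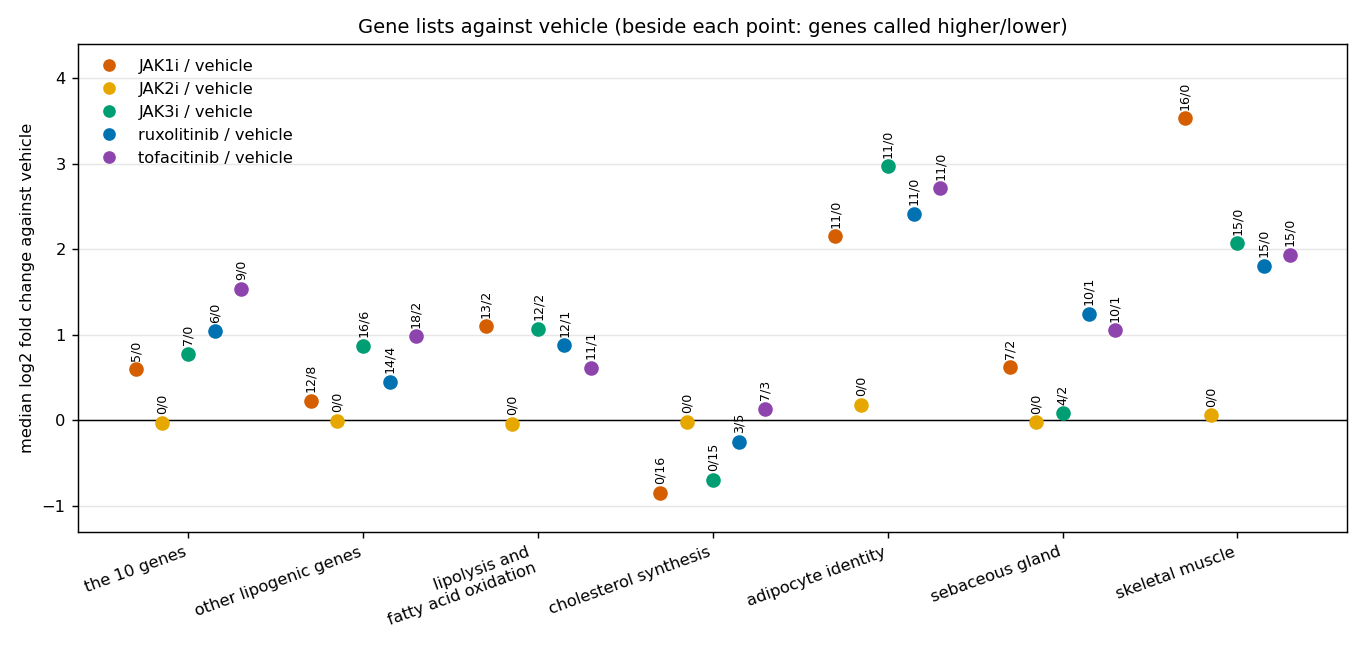
Median log2 fold change against vehicle (vertical axis) of the 10 genes and of 6 other gene lists for each inhibitor, with the number of genes called higher and lower beside each point. The median of the adipocyte list lies above that of the 10 genes after JAK1i, JAK3i, ruxolitinib and tofacitinib, and that of cholesterol synthesis lies below 0 after JAK1i, JAK3i and ruxolitinib.

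Markers of other cell types moved with the lipid synthesis genes. Of 12 adipocyte genes, 11 rose after each of JAK1i, JAK3i, ruxolitinib and tofacitinib, with medians of 2.15, 2.97, 2.42 and 2.71. The exception, named here after its values were seen, was Cebpa, and without the libraries of disputed name 11 again rose after JAK1i and JAK3i. Their summed level was 6249 to 8984 CPM after JAK1i, 9972 to 12268 CPM after JAK3i, 6313 to 6907 CPM after ruxolitinib and 6460.2 to 11197 CPM after tofacitinib, against 1696 to 1821 CPM after JAK2i and 1560.3 to 1773 CPM after vehicle. Adipoq, which encodes adiponectin, rose by 2.52, 3.66, 2.98 and 3.66 on the log2 scale after JAK1i, JAK3i, ruxolitinib and tofacitinib, and Plin1, a coat protein of lipid droplets, by 1.73, 3.12, 2.58 and 3.22. Relative to the mean of the adipocyte list, the mean of the 10 genes was lower after treatment, at −0.63 ± 0.53 after JAK1i, −1.22 ± 0.28 after JAK3i, −0.82 ± 0.06 after ruxolitinib and −0.44 ± 0.16 after tofacitinib, against 0.32 ± 0.08 after vehicle (log2 CPM, SD, n = 3 each). After JAK2i it was 0.24 ± 0.07, and these differences were not tested. The libraries whose names were not disputed were at −0.89 after JAK1i, −1.22 after JAK3i and 0.18 after JAK2i. Ucp1, which marks brown fat, had 0 to 6 counts per library and was not tested.

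Sebaceous gland genes differed between the inhibitors. Of 12, 7 rose and 2 fell after JAK1i, 4 rose and 2 fell after JAK3i, 10 rose and 1 fell after ruxolitinib and 10 rose and 1 fell after tofacitinib, with medians of 0.62, 0.09, 1.25 and 1.05. Without the libraries of disputed name 5 rose after JAK1i and 4 after JAK3i. Mgst1, a microsomal glutathione transferase, Plin5, a lipid droplet coat protein, and Fa2h, which hydroxylates fatty acids, rose after all 4 treatments. Their log2 fold changes after JAK3i were 1.74, 2.38 and 1.40, and those after the other 3 lay between 0.77 and 2.59. Awat2, a wax synthase of sebocytes, rose by 1.46 after JAK1i, 2.75 after ruxolitinib and 1.04 after tofacitinib, and its log2 fold change after JAK3i was 0.10. The call after JAK1i was lost without the libraries of disputed name (0.59, adjusted p = 0.222). Mc5r, the sebocyte melanocortin receptor, rose after the same 3 treatments (0.73, 1.02 and 1.00), and its log2 fold change after JAK3i was −0.24. The summed level of the list went the other way, at 751 to 1523 CPM after JAK1i, 1027 to 1255 CPM after JAK3i, 1882 to 1917 CPM after ruxolitinib, 1806 to 1971 CPM after tofacitinib and 4375 to 5430 CPM after vehicle. Most of that sum in vehicle skin was Krt79, a keratin also present in hair follicles, at a mean of 4546 CPM, which fell after all 4 treatments (−3.16, −3.86, −2.19 and −2.29 on the log2 scale for JAK1i, JAK3i, ruxolitinib and tofacitinib).

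Skeletal muscle genes rose as well, 16 of 16 after JAK1i and 15 of 16 after JAK3i, ruxolitinib and tofacitinib, with medians of 3.53, 2.07, 1.81 and 1.94. With the libraries of disputed name left out, 15 rose after each of JAK1i and JAK3i. Their share of all counts was 5.11% to 11.1% in JAK1i libraries, 3.47% to 4.64% in JAK3i libraries, 3.12% to 3.37% in ruxolitinib libraries and 2.03% to 4.94% in tofacitinib libraries, against 0.779% to 1.06% in vehicle libraries. Within tofacitinib the muscle share was lowest in replicate 2, at 2.03%, the library in which the lipid synthesis genes were highest. The mean of the adipocyte list was highest in that library too, at 9.18 log2 CPM against 8.18 and 8.61 in replicates 1 and 3. Hair shaft and inner root sheath genes (13 of 13) and T cell genes (10 of 10) fell after JAK1i, JAK3i, ruxolitinib and tofacitinib. Epidermal keratins marked every library as skin, with 8 keratinocyte genes at 1.00% to 3.18% of all counts. Of these 8, 4 fell after JAK1i, 7 after JAK3i, 3 after ruxolitinib and 4 after tofacitinib, and 1 rose after each. Endothelial genes rose after all 4 treatments (5 of 6 after JAK1i and 6 of 6 after the others). Of 10 macrophage genes, 9 fell after JAK1i, 6 rose after JAK3i, 2 fell after ruxolitinib and 3 fell after tofacitinib. With the libraries of disputed name left out, 10 macrophage genes fell after JAK1i, 9 rose after JAK3i, 6 fell after ruxolitinib, and 5 fell and 1 rose after tofacitinib. In the same fit 4, 6, 5 and 6 keratinocyte genes fell after JAK1i, JAK3i, ruxolitinib and tofacitinib, and the counts of hair, T cell and endothelial genes called were as above. Of the adipocyte, sebaceous, muscle and keratinocyte lists, no gene was at 0 in any library. The part of these tissues in the changes of lipid synthesis genes was not tested.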

How the data were processed

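RNA was taken from skin biopsies with a column kit, and libraries were sequenced on a HiSeq instrument. The deposited values are raw read counts per gene, which per the labels the authors made with Subread on mm10 (GRCm38), and the submitters' notes also name DESeq2 1.18.1. Trimming, strand and annotation are not given in the sources used here, so that reads of genes that overlap on opposite strands cannot be told apart. The exons of the 10 genes overlapped other genes by at most 6.78% of their length. A second deposited table, with an expression score of 7 genes per library made by the authors, was used only to compare library names. Symbols that had been turned into dates were restored for 26 rows, and 855 rows without a symbol (at most 0.608% of counts) were kept under their Entrez ID.

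Counts of all 24 libraries were fitted in 1 model with 7 groups in edgeR 4.0.16 (R 4.3.3), with TMM scaling, filterByExpr at a minimum count of 10, and quasi-likelihood tests with Benjamini-Hochberg adjustment over 17770 genes. A gene was called at an adjusted p below 0.05. SE is that of the log2 fold change, intervals are at 95%, and log2 CPM used a prior count of 2. The median total count was 19462756.5, and no pair of libraries of a group agreed within sampling noise. The fit was tested on simulated data. DESeq2 1.42.0, other scalings and filters, fits of fewer libraries, leaving out each library and a replicate block were tried as alternatives. All 10 genes are named, with up to 4 genes per other list ranked by p, defining markers, other lipogenic genes and the 10 genes most like the mean profile. The members and all lists were chosen with earlier results of these data known. Promoters came from RefSeq (GRCm38.p6).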

Additional observations from a re-analysis of the deposited data

How the results depend on the processing

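Against vehicle, the number of lipid synthesis genes called after JAK3i, ruxolitinib and tofacitinib stayed within 1.5 times under every alternative run (6 to 8, 6 to 8 and 9 to 10), and 0 were called after JAK2i under each. After JAK1i it ranged from 3, without vehicle replicate 1, to 6 with single libraries left out, and was 3 without the libraries of disputed name, an alternative added after the data were seen, as against JAK2i (3). Alternatives other than leaving out a single library gave 3 to 7 for JAK1i against vehicle. In fits of only the 2 groups compared, 0 genes were called for JAK1i against ruxolitinib, for JAK1i against tofacitinib and for tofacitinib against ruxolitinib, 1 for JAK3i against JAK1i and 8 for JAK3i against ruxolitinib. JAK3i against ruxolitinib gave 2 without a filter, 3 in posttreatment libraries and 1 without the libraries of disputed name, which also left 1 for JAK3i against JAK1i. Tofacitinib against ruxolitinib gave 0 in posttreatment libraries, 3 without the libraries of disputed name and 6 in DESeq2, and DESeq2 gave 5 for JAK3i against tofacitinib. With single libraries left out, the counts ranged from 1 to 5 for JAK1i against ruxolitinib, 1 to 4 for JAK3i against ruxolitinib, 3 to 8 for JAK3i against tofacitinib and 0 to 6 for tofacitinib against ruxolitinib. The causes were not tested, beyond the fewer libraries in each such fit. The counts from these alternatives have no share of all genes beside them.

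Replicate numbers showed no pairing of the libraries. Same-numbered libraries of different groups had a median correlation of −0.01 in their deviations from the group means, over 45 pairs with 4 above 0.1. Other-numbered libraries had a median of 0.003, over 90 pairs with 10 above 0.1. A weak pairing, or one of a few libraries, would not show in such medians. With the replicate number as a block, tofacitinib against ruxolitinib gave 0 calls and Elovl6 after JAK2i turned to 0.023. Signs also turned, in values that were not called, for Dgat2 after JAK1i (0.038 with RLE scaling, 0.037 in DESeq2, 0.077 with TMM on genes other than muscle and hair, 0.057 without a filter, 0.058 in a fit of the 2 groups, 0.069 with a stricter filter), and for Acly after JAK1i (0.00045 with TMM on genes other than muscle and hair). Leaving out single libraries moved Dgat2 after JAK1i between −0.18 and 0.22, Acly after JAK1i between −0.17 and 0.20, Elovl6 after JAK2i between −0.12 and 0.062, Mlxipl after JAK2i between −0.17 and 0.042, Dgat2 after JAK3i between −0.031 and 0.31 and Srebf1 after tofacitinib between −0.0064 and 0.50.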
